A study of Mus musculus with 8 samples.

Results

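The expression of 10 genes that mark dendritic cells or their precursors in cultures of bone marrow was examined in macrophages of WT and Gsdmd-/- mice. The genes were Zbtb46, Batf3, Id2, Flt3, Kit, Ccr7, Xcr1, Cd209a, Itgae and Dpp4, chosen by symbol as a list of dendritic cell genes outside the MHC. Each of the 10 symbols matched 1 row of the deposited table, which lists 54532 genes. The macrophages had been grown from bone marrow for 6 days with macrophage colony-stimulating factor at 20 ng/ml, and none of the cultures was treated. The study's methods describe the donors of such cultures as female C57BL/6J mice aged 6 to 8 weeks, and the Gsdmd-/- animals came from another colony than the purchased WT mice. There were 4 libraries of each genotype. Since no source used here says that each library came from a separate mouse or culture, the p-values below measure the spread between these libraries, which may be technical.

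Dendritic cells take up antigen in tissues and present it to T cells. They develop in bone marrow from precursors that carry the receptor FLT3, whose ligand drives the dendritic cell lineage, whereas macrophage colony-stimulating factor drives bone marrow cells towards macrophages. Conventional dendritic cells fall into cDC1, which take up dead cells and prime cytotoxic T cells, and cDC2, which mainly prime helper T cells. ZBTB46 marks both, BATF3 and ID2 are needed for cDC1, and XCR1 and the integrin chain CD103, encoded by Itgae, are found on cDC1. CCR7 takes mature dendritic cells to lymph nodes.

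Total counts per library were between 14935114 and 16794810. Levels are given as CPM, the usual scaling of counts to library size, with library sizes adjusted by the TMM method of edgeR. The limit that an absence of reads sets was taken as 3 counts, or 0.177 to 0.199 CPM depending on the library, and covers counting error only. Gsdmd itself averaged 75.3 CPM in WT and 16.2 CPM in Gsdmd-/- libraries. WT 2 and WT 3 stood apart from all others on the first principal component (43.6% of the variance, scores of 45.4 and 38.8, against -25.9 to -7.19). Many results that rest on them are therefore also given without them. On the second component (17.7%) WT 4 was lowest (-31.4, against -11.5 to 23.7 in the others). Fits without WT 2 and WT 3 thus rest on WT 1 and WT 4 for the WT level. Genotypes were compared across all 12911 genes with enough reads by the two-sided quasi-likelihood test of edgeR. Adjusted p-values are corrected over all these genes by the Benjamini-Hochberg method, and log2 fold changes are Gsdmd-/- minus WT.

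The 10 genes were found at very different levels, and most were close to absent. Per kilobase of exon, Id2 was far above the rest, with 160 CPM per kilobase in WT and 209 in Gsdmd-/- macrophages. Batf3 followed with 10.5 and 6.41 CPM per kilobase, and Kit with 4.28 and 6.44, and the libraries of these neighbours overlapped in both genotypes. Cd209a (0.481 and 0.452), Zbtb46 (0.303 and 0.220), Ccr7 (0.231 and 0.103) and Itgae (0.0899 and 0.0645 CPM per kilobase) came next, all below Kit and Batf3 in every library, with overlap between neighbours. Xcr1, Dpp4 and Flt3 were lowest, at or below 0.0274 CPM per kilobase in both genotypes. In no library did 6 of the 10 genes reach 25 counts. All 13 macrophage markers listed for comparison were tested, and their levels are given in CPM, not per kilobase. Lyz2, Csf1r and Adgre1 were at 12999 to 20757, 938 to 1311 and 242 to 326 CPM over the 8 libraries. Fcgr1 (6.66 to 40.7 CPM) and C1qa (4.46 to 77.6 CPM) were much lower. Their ranges overlapped those of Kit (10.3 to 71.0 CPM) and Batf3 (8.16 to 20.3 CPM), and Id2 (379 to 576 CPM) was above Adgre1. Since Flt3 and Dpp4 never exceeded 3 counts and Xcr1 never exceeded 4, with these defining genes at or near 0 the 10 are described as genes and not as a cell population. In bulk RNA, fewer cells of a type and less RNA per cell cannot be told apart.

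**Figure D1:**
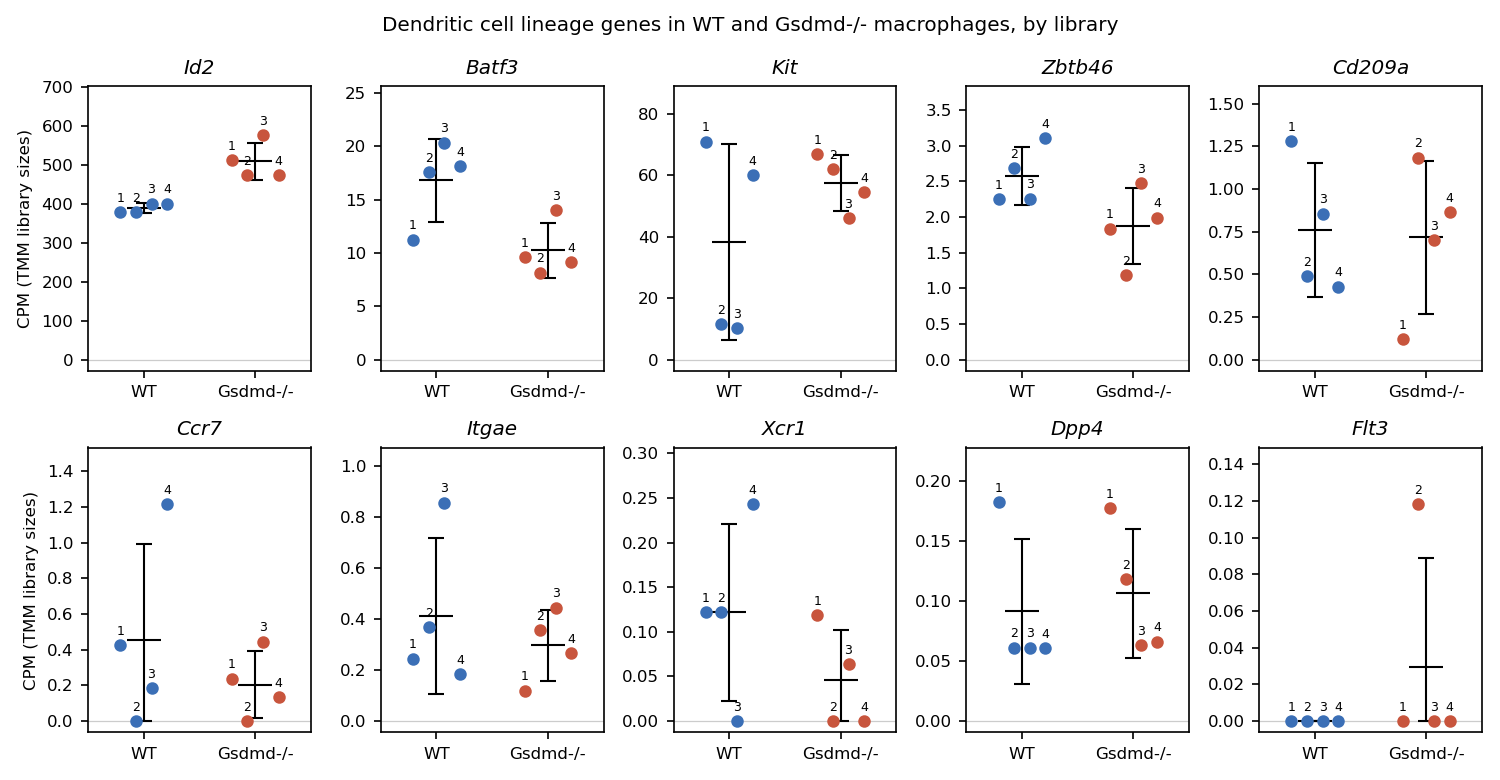
CPM of the 10 genes in each library (points, with the library number) in WT and Gsdmd-/- macrophages, each panel with its own linear axis from 0; horizontal marks show the mean of 4 libraries and bars the SD, drawn down to 0 at most. Id2 is the gene whose 4 Gsdmd-/- libraries all lie above the 4 WT libraries, Kit shows WT 2 and WT 3 near 11.4 and 10.3 CPM, and the lower row holds genes of 20 counts or fewer.

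Of the 10 genes, 5 had enough reads to be tested (Id2, Batf3, Zbtb46, Kit and Cd209a), and the other 5 were below the filter on low counts. None of the 5 had an adjusted p under 0.05 in edgeR or limma voom, where 0.349% and 0.333% of all genes tested passed. In DESeq2 1 of the 5 passed (Id2), beside 2.26% of all genes tested. At an unadjusted p under 0.05, 2 of the 5 passed in edgeR, beside 12.0% of all genes tested. The study's cutoff for its volcano plot also asks for a log2 fold change of 0.5 or more in size, and 1 of the 5 passed it (Batf3, lower), beside 4.83% of all genes. The levels of the genotypes did not overlap for 1 of the 5 tested genes (Id2), beside 7.60% of all genes tested, and overlapped for each of the 5 below the filter. The median log2 fold change of the 5 tested genes was -0.09, and that of all genes tested was -0.01.

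Id2 encodes an inhibitor that lacks a DNA-binding region and holds E proteins away from DNA. In GRCm38, to which all positions here refer, it lies on chromosome 12 from 25093799 to 25097140 on the minus strand, and by level per kilobase it ranked 226 among the genes tested. Its level was 379, 379, 401 and 400.5 CPM in WT libraries 1 to 4 and 512, 474, 576 and 474 CPM in Gsdmd-/- libraries 1 to 4. The WT libraries lay within a narrow range, and each Gsdmd-/- library was above all of them. Mean levels were 389.7 ± 12.7 CPM in WT and 509 ± 48.0 CPM in Gsdmd-/- (SD, n = 4 each). The difference amounted to 0.38 on the log2 scale (SE 0.0869, 95% interval 0.19 to 0.58), with an unadjusted p of 0.00119 and an adjusted p of 0.115 in edgeR. DESeq2 gave an adjusted p of 0.00168, and limma voom 0.122. An exact permutation test of the mean CPM, two-sided, gave p = 0.0286, the smallest p that 4 against 4 libraries allow. Without WT 2 and WT 3 the difference was still 0.38 (adjusted p = 0.142).

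Other ID genes and the E proteins they bind were examined beside Id2. Id1 was at 40.7, 37.3, 42.3 and 42.1 CPM in WT and at 60.6, 49.8, 78.7 and 57.7 CPM in Gsdmd-/- libraries. As for Id2, no Gsdmd-/- library reached down to the WT range, and Gsdmd-/- 3 was the highest. Its log2 fold change was 0.60 (SE 0.131, unadjusted p = 0.000905), past the study's cutoff, with an adjusted p of 0.108 in edgeR. Id3 differed by 0.26 on the log2 scale (adjusted p = 0.559) with overlap between the genotypes, and by 0.50 without WT 2 and WT 3 (adjusted p = 0.174), which meets the cutoff. Id4 never exceeded 2 counts. Of the E protein genes, Tcf3 (0.10), Tcf4 (-0.16) and Tcf12 (0.18 on the log2 scale) had adjusted p-values of 0.792, 0.644 and 0.575. Without WT 2 and WT 3 their log2 fold changes were -0.043, -0.202 and 0.062, so that Tcf3 turned. The adjusted p-values in edgeR were then 0.936, 0.6375 and 0.898.

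BATF3 is a transcription factor that pairs with JUN and IRF proteins and keeps Irf8 active in cDC1. Batf3 (chromosome 1 from 191097847 to 191108945, plus strand) was at 11.3, 17.6, 20.3 and 18.1 CPM in WT and at 9.60, 8.16, 14.0 and 9.15 CPM in Gsdmd-/- libraries. The genotypes overlapped, since WT 1 was below Gsdmd-/- 3, while the other WT libraries were above all Gsdmd-/- libraries. The mean was 16.8 ± 3.90 CPM in WT and 10.2 ± 2.59 CPM in Gsdmd-/- (SD, n = 4 each), 60.8% of the WT level. The log2 fold change was -0.72 (SE 0.212, 95% interval -1.19 to -0.25), with an unadjusted p of 0.00671 and an adjusted p of 0.231. An exact permutation test, two-sided, gave p = 0.0571 for the mean CPM. Without WT 2 and WT 3 the log2 fold change was -0.52 and the unadjusted p 0.0545, so that Batf3 no longer met the study's cutoff.

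Genes that act with Batf3 were examined next, and none of 4 met the cutoff. Its relatives Batf and Batf2 had log2 fold changes of -0.06 (adjusted p = 0.905) and 0.07 (adjusted p = 0.919). Without WT 2 and WT 3 these were -0.06 (adjusted p = 0.913) and -0.11 (adjusted p = 0.878), so that Batf2 turned. Irf8, the target and partner of Batf3 in cDC1, averaged 95.1 ± 17.0 CPM in WT and 97.6 ± 4.93 CPM in Gsdmd-/- (SD, n = 4 each), which is a log2 difference of 0.04 (adjusted p = 0.933). Irf4, the corresponding factor of cDC2, differed by -0.35 on the log2 scale (adjusted p = 0.358). Irf4 was at 101 and 94.4 CPM in WT 1 and WT 4, at 71.7 and 69.1 CPM in WT 2 and WT 3, and at 58.5 to 72.6 CPM in Gsdmd-/- libraries. Without WT 2 and WT 3 its log2 fold change was -0.57 (unadjusted p = 8.042e-04, adjusted p = 0.0588 in edgeR), which meets the study's cutoff, and that of Irf8 turned to -0.17 (adjusted p = 0.508). None of these was tested for a difference from Batf3.

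ZBTB46 is a zinc finger repressor that marks conventional dendritic cells and their committed precursors. Zbtb46 lies on chromosome 2 from 181387762 to 181459426 on the minus strand. It was at 2.25, 2.69, 2.26 and 3.10 CPM in WT and at 1.84, 1.18, 2.47 and 1.99 CPM in Gsdmd-/- libraries, or between 20 and 51 counts per library. Gsdmd-/- 3 lay among the WT libraries, and the other Gsdmd-/- libraries lay below all WT libraries. The log2 fold change was -0.46 (SE 0.255, 95% interval -1.03 to 0.10, adjusted p = 0.526), and the exact permutation test of the mean CPM, two-sided, gave p = 0.0857. Without Gsdmd-/- 3 it was -0.62 with an unadjusted p of 0.0438, which meets the study's cutoff, and without Gsdmd-/- 2 it was -0.30 with an unadjusted p of 0.239 in edgeR.

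KIT is the receptor for stem cell factor, found on blood stem cells, early precursors and mast cells. Kit (chromosome 5 from 75574916 to 75656722, plus strand) was at 71.0, 11.4, 10.3 and 60.0 CPM in WT and at 66.9, 62.0, 46.0 and 54.6 CPM in Gsdmd-/- libraries. WT 2 and WT 3 were well below all others, whereas WT 1 and WT 4 were within or just above the range of the Gsdmd-/- libraries. The mean was 38.2 ± 31.9 CPM in WT and 57.4 ± 9.14 CPM in Gsdmd-/- (SD, n = 4 each), and the log2 fold change was 0.59 (SE 0.543, 95% interval -0.62 to 1.79, adjusted p = 0.720). Without WT 2 and WT 3 the direction turned, to -0.19 (adjusted p = 0.683).

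Markers of other cells that carry KIT were below Kit in CPM in every library, by less in WT 2 and WT 3. In these 2 libraries the mast cell markers listed summed to 5.07 and 6.96 CPM, against 11.4 and 10.3 CPM for Kit. Of 10 mast cell markers, 3 had no count in any library (Cma1, Mcpt4 and Tpsab1) and 7 never reached 10 counts. The highest was Gata2, a factor also active in precursors, at 4.03 to 8.64 CPM, followed by Cpa3 and Hdc at 1.60 CPM or less. The summed level of the 10 markers was 5.07 to 10.3 CPM in WT, lowest in WT 2 and WT 3, and 8.10 to 10.1 CPM in Gsdmd-/-. Of 7 stem and progenitor cell markers, 5 never reached 10 counts, Cd34 was at 0.946 to 2.61 CPM and Meis1 at 0.533 to 1.22 CPM, with a summed level of 2.31 to 2.99 CPM in WT and 1.83 to 3.26 CPM in Gsdmd-/-. Macrophage markers set WT 2 and WT 3 apart in both directions. Of the 13, 7 were lower in both of these libraries than in any of the other 6 (C1qa, C1qb, C1qc, Cd68, Fcgr1, Itgam and Lyz2), 3 were higher (Adgre1, Mertk and Mrc1) and 3 were neither. C1qa, a complement subunit, was at 4.46 and 6.66 CPM in WT 2 and WT 3 and at 8.96 to 77.6 CPM elsewhere. Mertk, a receptor for dying cells, was at 249.6 and 212 CPM in WT 2 and WT 3 and at 101 to 142 CPM elsewhere. The summed macrophage markers ranged from 16350 to 24631 CPM in WT and from 20306 to 24298 CPM in Gsdmd-/-. The part of any of these cells in the level of Kit was not tested. Kitl, which encodes stem cell factor, was highest in WT 2 (6.29 CPM) and at 1.70 to 3.42 CPM in the other libraries (log2 fold change -0.45, adjusted p = 0.681). It turned to 0.27 (adjusted p = 0.799) without WT 2 and WT 3.

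FLT3 is the receptor that dendritic cell precursors need to expand. Flt3 (chromosome 5 from 147330741 to 147400489, minus strand) had no count in any WT library or in Gsdmd-/- 1, 3 and 4, and 2 counts in Gsdmd-/- 2 (0.118 CPM). All 8 libraries were thus within the limit that a count of 0 allows, and no difference was detectable at this depth. Its ligand gene Flt3l was at 0.122 to 1.28 CPM in WT and at 0.398 to 0.711 CPM in Gsdmd-/- libraries (log2 fold change -0.19, adjusted p = 0.923). Flt3l was lowest in WT 2 and WT 3, and without them its log2 fold change was -0.90 (adjusted p = 0.357), which meets the study's cutoff.

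**Figure D2:**
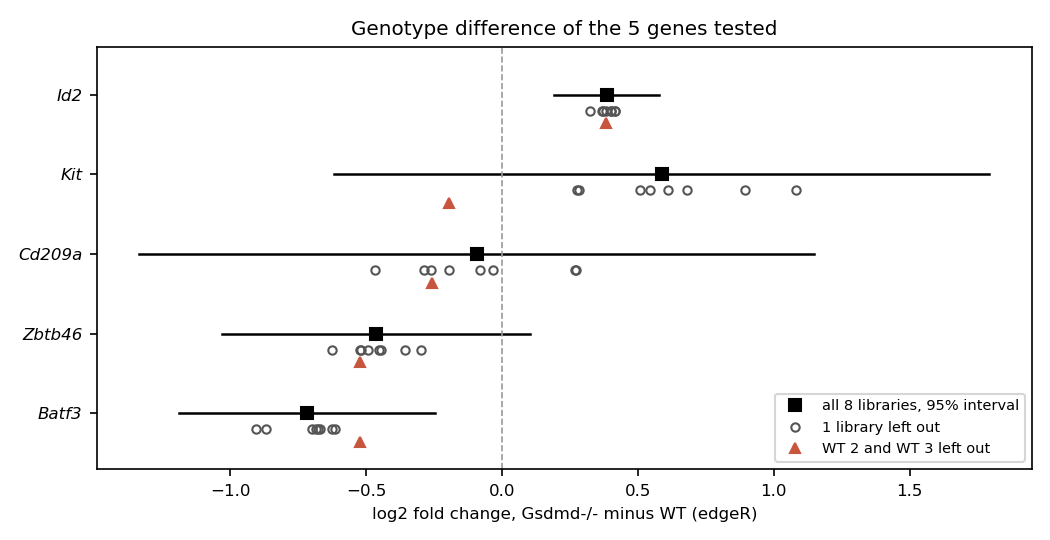
Log2 fold changes of the 5 genes tested, Gsdmd-/- minus WT, from edgeR with all 8 libraries (squares, with 95% intervals), with 1 library left out (open circles) and with WT 2 and WT 3 left out (triangles). The intervals of Id2 (0.19 to 0.58) and Batf3 (-1.19 to -0.25) do not reach 0, and those of Kit, Cd209a and Zbtb46 do.

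The chemokine receptors of dendritic cells were barely detected. Ccr7 (chromosome 11 from 99144196 to 99155077, minus strand) had 7, 0, 3 and 20 counts in WT and 4, 0, 7 and 2 counts in Gsdmd-/- libraries. WT 1 (0.426 CPM), WT 4 (1.22 CPM), Gsdmd-/- 1 (0.237 CPM) and Gsdmd-/- 3 (0.444 CPM) were above the limit of 3 counts, and the exact permutation test of the mean CPM, two-sided, gave p = 0.543. Its ligand genes Ccl19 and Ccl21a, each listed under more than 1 identifier, had no count. Xcr1 (chromosome 9 from 123852315 to 123862029, minus strand), the receptor of the chemokine XCL1, had 2, 2, 0 and 4 counts in WT and 2, 0, 1 and 0 counts in Gsdmd-/- libraries, and Xcl1 had 2 counts in WT 4 and none elsewhere. For Xcr1 the same exact test, two-sided, gave p = 0.200.

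The remaining surface proteins were a lectin, an integrin chain and a peptidase. Cd209a encodes a mouse relative of DC-SIGN, a lectin of monocyte-derived dendritic cells and cDC2. It lies on chromosome 8 from 3743397 to 3748984 on the minus strand, and its levels were 1.28, 0.489, 0.855 and 0.426 CPM in WT and 0.118, 1.18, 0.698 and 0.862 CPM in Gsdmd-/- libraries, or 2 to 21 counts. The genotypes overlapped, with Gsdmd-/- 1 below all WT libraries and the other Gsdmd-/- libraries within the WT range, and the 95% interval of the log2 fold change (-0.09, SE 0.559) ran from -1.34 to 1.15 (adjusted p = 0.965). Of its relatives in the Cd209 family, Cd209c was at 1.26 to 1.90 CPM (log2 fold change -0.07, adjusted p = 0.936), Cd209b, Cd209d and Cd209e had at most 5 counts in a library, and Cd209f and Cd209g had none. Reads shared between these related genes could be split by the counting, whose rules are not given in the sources used here.

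Itgae encodes CD103, which pairs with the product of Itgb7 and binds E-cadherin. Itgae (chromosome 11 from 73090583 to 73147446, plus strand) had 4, 6, 14 and 3 counts in WT and 2, 6, 7 and 4 counts in Gsdmd-/- libraries, with overlap (exact permutation test of the mean CPM, two-sided, p = 0.657). Haspin lies within Itgae on the other strand, without shared exon sequence, and had 333 counts over the WT and 332 over the Gsdmd-/- libraries. Itgb7 averaged 14.7 ± 6.72 CPM in WT and 15.3 ± 0.538 CPM in Gsdmd-/- (SD, n = 4 each), with 9.78 and 8.49 CPM in WT 2 and WT 3 and 14.7 to 22.6 CPM in the other 6 libraries (log2 fold change 0.06, adjusted p = 0.953, and -0.40 without WT 2 and WT 3, adjusted p = 0.163). Cdh1, the gene of E-cadherin, differed by -0.27 on the log2 scale (adjusted p = 0.769), and was likewise lower in WT 2 and WT 3 (10.3 and 8.24 CPM) than in any other library. Without these its log2 fold change was -0.76, with an adjusted p of 0.0416 in edgeR. Dpp4, the gene of the peptidase CD26, which in humans binds adenosine deaminase, lies on chromosome 2 from 62330073 to 62412231 on the minus strand. It had 3, 1, 1 and 1 counts in WT and 3, 2, 1 and 1 counts in Gsdmd-/- libraries, so that no library exceeded the limit of 3 counts. Ada, the gene of adenosine deaminase, differed by -0.20 on the log2 scale (adjusted p = 0.805).

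Lymphoid cells can also express Id2, Itgae and Dpp4. Of 10 markers of T, NK and innate lymphoid cells, 8 never reached 10 counts, and the defining markers Cd3d and Ncr1 had no count in any library. The markers that reached 10 counts were Gata3, at 0.365 to 1.10 CPM, and Il7r, at 614 to 720 CPM in WT and from 707 to 778 CPM in Gsdmd-/- libraries (log2 fold change 0.12, adjusted p = 0.593). Nearly all of the summed level of this list (615 to 721 CPM in WT and 708 to 779 CPM in Gsdmd-/-) came from Il7r. The part of lymphoid cells in the level of Id2 was not tested.

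Other genes of dendritic cells were taken from 7 lists, which hold 101 genes beside the 10, of which 77 were tested. None had an adjusted p under 0.05 in edgeR or limma voom, and 18 (23.4%) had an unadjusted p under 0.05 in edgeR, beside 12.0% of all genes tested. In DESeq2 2 of the 77 had an adjusted p under 0.05 (Id1 and Tbc1d8), or 2.60%, beside 2.26% of all genes. At the study's cutoff 3 were higher and 5 were lower, 10.4% of the 77 beside 4.83% of all genes tested. Their median log2 fold change was -0.15. When WT 2 and WT 3 were left out, 17 of the 77 met the cutoff (3 higher and 14 lower), or 22.1%, beside 6.19% of all genes tested in that fit. Of the 8, Bcl11a and Id1 were among the 17. Tbc1d8 (log2 fold change -0.499, unadjusted p = 0.00287 in edgeR) then missed the cutoff by size, and Hmgn3 (0.60, unadjusted p = 0.0943) by its p. Of the 17, 15 had not met the cutoff with all 8 libraries. In the same fit, with 2 WT libraries left, 6 of the 77 were lower at an adjusted p under 0.05 (Cdh1, Il1r2, Irf7, Kmo, Mgl2 and Rbpj), or 7.79%, beside 1.21% of all genes tested, and these genes were chosen for naming after their values were seen. Macrophage markers moved in the same fit, where 4 of 13 were lower at an adjusted p under 0.05 in edgeR (C1qa, C1qb, C1qc and Fcgr1), and their part in the list results was not tested.

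In the list of conventional dendritic cell genes, 20 of 23 were tested, with 6 positive and 14 negative log2 fold changes and a median of -0.14. Bcl11a, a transcription factor of early lymphoid and dendritic precursors, was at 1.40, 1.22, 0.244 and 0.243 CPM in WT and at 2.13, 2.60, 1.90 and 1.92 CPM in Gsdmd-/- libraries, without overlap (log2 fold change 1.45, SE 0.491, adjusted p = 0.288). Hmgn3, a chromatin protein gene, differed by 0.70 on the log2 scale (adjusted p = 0.354). Tbc1d8 was at 18.0, 22.5, 20.6 and 18.5 CPM in WT and at 12.3, 12.2, 12.2 and 15.1 CPM in Gsdmd-/- libraries, again without overlap, and its log2 fold change of -0.62 had the lowest adjusted p in these lists (SE 0.119, adjusted p = 0.0732). Nectin1, an adhesion molecule gene, differed by -1.04 on the log2 scale (adjusted p = 0.260), and by -0.58 without WT 2 and WT 3 (adjusted p = 0.571), where it was highest (3.24 and 2.87 CPM). Gpr132 (-0.58, adjusted p = 0.0903), Kmo (-1.78, adjusted p = 0.0389) and Traf1 (-0.66, adjusted p = 0.0827) of this list met the cutoff when WT 2 and WT 3 were left out but not with all 8 libraries, where Kmo was at -1.12 with an unadjusted p of 0.0503 in edgeR. Itgax, the gene of CD11c, ranged from 2206 to 2346 CPM in WT and from 1653 to 2080 CPM in Gsdmd-/- libraries, which is a log2 difference of -0.25 (adjusted p = 0.337). CD11c is carried by many macrophages as well as by dendritic cells.

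Among the cDC1 genes, 9 of 11 were tested, and Clec9a and Tlr11 were lower at the study's cutoff. Clec9a, a receptor for dead cells, was at 17.0, 49.1, 45.3 and 17.6 CPM in WT and at 14.5, 16.4, 17.4 and 18.3 CPM in Gsdmd-/- libraries. Here WT 2 and WT 3 were high and WT 1 and WT 4 lay among the Gsdmd-/- libraries, the mirror image of Kit, and the log2 fold change of -0.95 (adjusted p = 0.304) became -0.06 without WT 2 and WT 3. Tlr11, a receptor for microbial profilin, differed by -0.64 on the log2 scale (adjusted p = 0.392). Its log2 fold change was -0.71 without these libraries, with an unadjusted p of 0.0610 in edgeR, so that it too no longer met the cutoff. The other 7 tested cDC1 genes did not meet the cutoff, and the median of the list was 0.04.

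Of 11 cDC2 genes, 9 were tested, 8 had negative log2 fold changes, and the median was -0.34. Esam, an adhesion molecule gene of splenic cDC2, met the cutoff with -2.00 (SE 0.839, adjusted p = 0.382). Its levels were 0.365, 5.87, 4.95 and 0.365 CPM in WT and 0.355 to 0.929 CPM in Gsdmd-/- libraries, and without WT 2 and WT 3 its log2 fold change turned to 0.95 (adjusted p = 0.499). Of the 9, 5 met the cutoff without WT 2 and WT 3, all lower, beside 6.19% of all genes and 4 of 13 macrophage markers (30.8%, all lower) in that fit. They were Il1r2, a decoy receptor for interleukin-1 (log2 fold change -1.85, adjusted p = 0.00183), the lectin genes Mgl2 (-1.12, adjusted p = 0.00858) and Clec10a (-0.76, adjusted p = 0.135), Rbpj, which mediates Notch signals (-0.68, adjusted p = 0.0199), and Irf4. With all 8 libraries no gene met the cutoff among 12 tested genes of mature dendritic cells (median -0.12), 4 of plasmacytoid dendritic cells (median -0.32) and 16 regulators of dendritic cell development (median -0.09). When WT 2 and WT 3 were left out, Ccl22, Marcksl1 and Relb of the mature genes, Irf7 of the plasmacytoid genes and Irf4 of the regulators met it, all lower. Ccl22 was at 9.19 and 23.5 CPM in WT 1 and WT 4 and at 5.74 to 10.6 CPM in Gsdmd-/- libraries. Its level in WT 1 thus lay within the Gsdmd-/- range (adjusted p = 0.202 in edgeR). Relb was at 17.4 and 30.3 CPM in WT 1 and WT 4 and at 13.4 to 16.7 CPM in Gsdmd-/- (adjusted p = 0.163). For Marcksl1 the adjusted p was 0.0549. Irf7, an interferon regulatory factor, was at 18.8, 1.47, 2.14 and 34.4 CPM in WT and at 10.5, 9.29, 6.60 and 5.71 CPM in Gsdmd-/- libraries. Its log2 fold change was -0.82 with all libraries and -1.72 without WT 2 and WT 3 (adjusted p = 0.0179), so that the Gsdmd-/- libraries lay between the 2 pairs of WT libraries. The 12 tested ligands and partners had a median of -0.16, with Id1 past the cutoff. Csf2ra and Csf2rb, receptor chains for GM-CSF, which drives monocyte-derived dendritic cells, had log2 fold changes of -0.18 (adjusted p = 0.403) and -0.16 (adjusted p = 0.552).

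**Figure D3:**
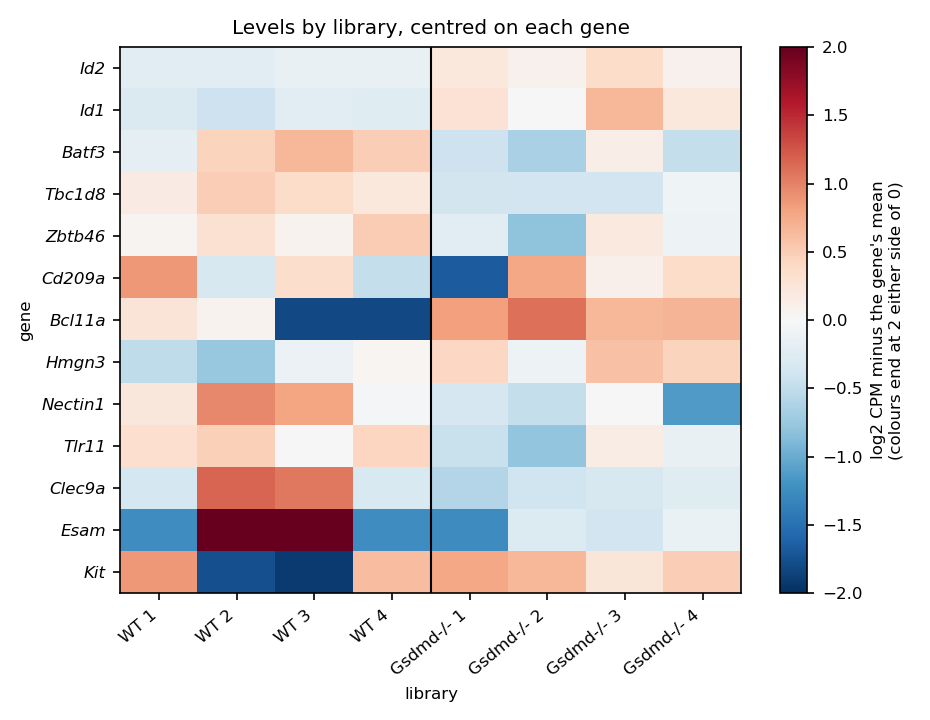
Log2 CPM in each library, minus the mean of each gene over the 8 libraries (colours end at 2 on either side of 0, and the line parts the genotypes). The genes are the tested lineage genes and the 8 genes of the other lists that met the study's cutoff with all libraries. Id2 and Id1 are higher in each Gsdmd-/- library than in any WT library, whereas Clec9a, Esam and Kit set WT 2 and WT 3 apart from the other 6.

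**Figure D4:**
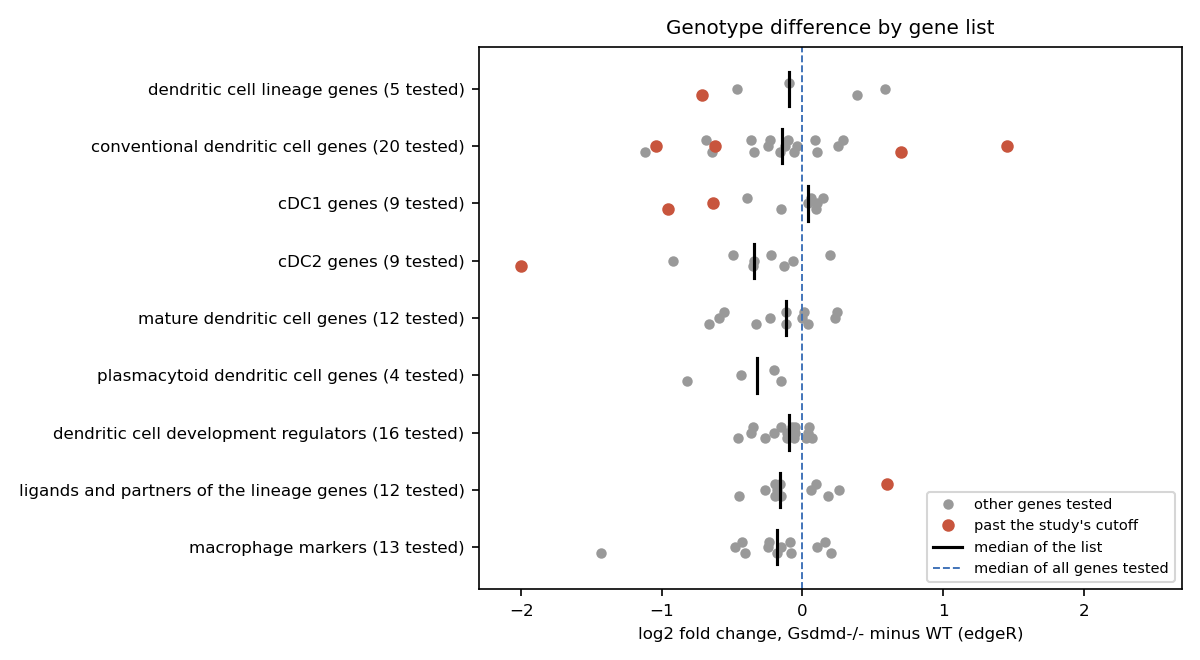
Log2 fold changes (Gsdmd-/- minus WT, edgeR) of the tested genes of 8 dendritic cell lists and of the macrophage markers; coloured points meet the study's cutoff, black lines are list medians and the dashed line is the median of all genes tested (-0.01). The 9 coloured points are Batf3, Bcl11a, Hmgn3, Tbc1d8, Nectin1, Clec9a, Tlr11, Esam and Id1.

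Markers of other cells were examined in the same way. The 6 B cell markers never reached 10 counts. Of 7 neutrophil markers, 5 never reached 10 counts, and Mmp8 (log2 fold change -0.32, adjusted p = 0.346) and S100a8 (0.15, adjusted p = 0.768) did not meet the cutoff. Mmp8 ranged from 653 to 940 CPM in WT and from 545 to 671 CPM in Gsdmd-/- libraries. Of the 6 stromal and endothelial markers, Cdh5 was tested, averaging 5.18 ± 1.00 CPM in WT libraries and 3.66 ± 0.900 CPM in Gsdmd-/- (SD, n = 4 each), which is a log2 difference of -0.51 (adjusted p = 0.402) that met the cutoff. Cdh5 was at 3.71, 5.38, 5.86 and 5.78 CPM in WT and at 2.78 to 4.64 CPM in Gsdmd-/- libraries. Its fold change without WT 2 and WT 3 is not given here. None of the 13 macrophage markers met the cutoff with all 8 libraries, and their median log2 fold change was -0.18. Leaving out WT 2 and WT 3 gave a median of -0.35 and 4 markers at the cutoff, C1qa (log2 fold change -2.31, adjusted p = 0.00227), C1qb (-1.22, adjusted p = 0.00536), C1qc (-1.27, adjusted p = 0.00858) and Fcgr1, an antibody receptor gene (-0.85, adjusted p = 0.0320).

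For the 4 lineage genes with a mean of at least 1 CPM, the genes with the most similar levels over the 8 libraries were sought, by the root mean square difference of log2 CPM centred on each gene. Genes picked in this way share the pattern of the lineage gene by choice, so their levels are a description only. Nearest to Id2 were Rilpl2 (0.0280) and Mir22hg (0.0558), while Id2 itself deviated from its mean by 0.209. Rilpl2 averaged 198 ± 10.5 CPM in WT and 261 ± 25.4 CPM in Gsdmd-/- (SD, n = 4 each). Nearest to Batf3 were Procr (0.125) and Stk39 (0.138), beside a deviation of 0.468 for Batf3. Procr, which encodes a receptor for protein C, averaged 103 ± 19.3 CPM in WT and 66.9 ± 9.11 CPM in Gsdmd-/- (SD, n = 4 each). Nearest to Kit were Cd24a (0.137) and Gm10654 (0.248), beside a deviation of 1.07 for Kit. Cd24a was at 51.6, 9.35, 8.49 and 39.9 CPM in WT and at 46.2, 46.8, 37.2 and 34.6 CPM in Gsdmd-/- libraries, low in the same WT libraries as Kit. Nearest to Zbtb46 were Tlr11 (0.148) and Npas4 (0.159), beside a deviation of 0.369 for Zbtb46.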

How the data were processed

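RNA of the macrophages was extracted with TRIzol, prepared with a TruSeq kit and sequenced at a company. The authors deposited raw read counts per gene for 8 libraries. The submitters' processing notes name the build mm10. The aligner, the counting tool and the use of strand are not given in the sources used here. Positions and exon lengths were taken from GENCODE M21 (GRCm38), which held 54495 of the 54532 identifiers. Genes were filtered with filterByExpr, scaled by TMM and compared by the quasi-likelihood test of edgeR 4.0.16 (R 4.3.3), with genotype as the only term. Standard errors were derived from the test statistic. Log2 CPM used a prior count of 2. limma 3.58.1 (voom), DESeq2 1.42.0, RLE and upper-quartile scaling, other filters, a replicate block and leaving out libraries were alternatives. The fits were tested on simulated data. The genes, the hand-written lists and the tests were chosen with earlier results of these data known. All 10 genes were named, and genes of other lists where they passed a cutoff, act with one of the 10 or mark a cell type that carries one. Results of other list genes and macrophage markers without WT 2 and WT 3 were an addition made with the values known.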

Additional observations from a re-analysis of the deposited data

Results flagged for a closer look

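In 19 sets of 4 libraries of a genotype, 2 had 1 library whose gap to the nearest other library exceeded the 95% critical value of Dixon's test. Chance gives about 1 in 20 for normal values without ties. For Flt3 in Gsdmd-/- macrophages, Gsdmd-/- 2 was the library with any counts (2), so that its gap was 1.00 of the range. For Dpp4 in WT macrophages, WT 1 with 3 counts stood against 1 count in each other library, a gap of 0.998 of the range. Both values are within the limit of 3 counts that a count of 0 allows. In both sets the other libraries had tied counts, which puts the gap near the whole range, so the test cannot judge them.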

How the results depend on the processing

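Of the 5 genes tested, Id2, Batf3 and Zbtb46 kept their direction in all 16 alternatives, and Id2 passed an adjusted p under 0.05 in 1 of them, DESeq2 (0.00168). For Kit the direction turned without WT 2 and WT 3 (-0.19). With 1 library left out, the log2 fold change of Cd209a ran from -0.47 to 0.27 and turned without WT 1 (0.27) or Gsdmd-/- 1 (0.27), and that of Kit from 0.27 to 1.08. The number of these genes with an adjusted p under 0.05 was 0, and 1 in DESeq2. The number at the study's cutoff was 1. It became 0 without WT 2 and WT 3 or with a log2 fold change of 1 or more in size, and was between 1 and 2 with 1 library left out (2 without Gsdmd-/- 3). Over all genes, 45 had an adjusted p under 0.05, against 292 with DESeq2, 109 with no filter, 25 with the replicate block, 161 without WT 2 and WT 3, and between 14 and 84 with 1 library left out. At the study's cutoff there were 623, against 1204 with no filter, 199 with a log2 fold change of 1 or more in size, and between 469 and 1022 with 1 library left out. Without WT 2 and WT 3 there were 823, and 8 genes of the other lists became 17 (at an adjusted p under 0.05, 0 became 6). The causes were not tested. Replicate numbers were not taken as pairs, since deviations of same-numbered libraries correlated between -0.201 and 0.182. With the replicate block Kit differed by 1.03 on the log2 scale (adjusted p = 0.512) and Id2 by 0.38 (adjusted p = 0.264). CPM of the total count in place of TMM changed no direction or call of the exact tests. Depth limits Flt3, Dpp4, Xcr1, Ccr7 and Itgae.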
